A study of Mus musculus with 3 samples.

Results

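The genes described here are 41 chromatin regulators: 20 nucleosome remodelers, 8 lysine acetylases, 10 deacetylases, and a group of 3 made of the corepressor Ncor1 and the acetyl-lysine readers Brd2 and Brd3. They were chosen by symbol from a fixed list, drawn up with earlier results of these data known. All 41 matched a single gene identifier among the 55536 annotated mouse genes of the deposited tables. RNA bound to chromatin was sequenced, after removal of ribosomal RNA, from macrophages grown from the bone marrow of C57BL/6J mice and exposed to lipid A at 100 ng/ml for 30 min. Lipid A is the membrane anchor of bacterial lipopolysaccharide and acts through Toll-like receptor 4. The 3 libraries form 1 group with no untreated or later sample, so no value below is a response to lipid A. They were made from 1 µg, 250 ng and 500 ng of RNA (libraries 1, 2 and 3), share a single donor record, and carry neither sex nor age. No source says that they came from separate mice or cultures, so spreads between them may be technical.

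Nucleosome remodelers use ATP to slide, evict or exchange histones. They fall into the SWI/SNF (BAF and PBAF), ISWI, CHD and INO80 families, which differ in their motor proteins. Lysine acetyltransferases add acetyl groups to histone tails and other proteins, bromodomain proteins such as Brd2 and Brd3 bind those groups, and the histone deacetylases and sirtuins remove them. In macrophages, corepressor complexes hold Hdac3 at inflammatory genes before stimulation, and acetylation and SWI/SNF remodeling accompany the induction of many genes downstream of Toll-like receptors. RNA in the chromatin fraction is largely nascent or not yet released, so it holds unspliced and partly spliced transcripts, and a level there is neither a level of cytoplasmic mRNA nor of protein.

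Annotated genes received 16301150, 17033725 and 16205704 expected counts in libraries 1 to 3, where an expected count is an estimated number of reads assigned to a gene. All 8 macrophage markers looked up were detected, led by Csf1r at 177, 174 and 256 TPM (a level per transcript length, scaled to the same total in each library). Of 10 markers of other blood and stromal cells 3 were detected, with a summed level of 1.42, 1.23 and 1.98 TPM for the whole list against 523, 534 and 746 TPM for the macrophage list. Cd3e and Ly6g, which define T cells and neutrophils, had 0 counts in every library, where 3 counts is the most that a count of 0 allows. Kit was the highest of the list by mean, at 0.44, 0.27 and 0.76 TPM, although Pecam1 was higher in library 1 and Cdh5 in library 2. In a second quantification, also deposited, Pecam1 was the highest of the list, at 3.81, 3.58 and 8.24 TPM. Kit had 1.03, 0.37 and 0.73 TPM there, and Csf1r had 271, 242 and 349 TPM.

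All 41 members were detected, meaning a mean of at least 10 expected counts, and the same was true of 49.9% of protein-coding genes. The lowest value of any member in any library was 57 counts, for Hdac2. The median member had a mean of 1256 expected counts, against 204 for detected protein-coding genes. The median member level was 16.8 TPM and the median of detected protein-coding genes was 4.98 TPM. The median member sat at percentile 77.0 of detected protein-coding genes ranked by mean TPM. A mean of 10 TPM or more was reached by 30 of 41 members and by 33.3% of detected protein-coding genes. Together the members took 0.541%, 0.544% and 0.491% of expected counts. As a list these genes lay in the upper part of the expressed range, with members on both sides of the median of detected genes. Because the list was chosen with earlier results known, this describes its members and not chromatin regulators in general.

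TPM values were highest in library 3 for most genes. Genes shorter than 300 nt, which include the small nucleolar RNAs, took 72.9%, 66.3% and 56.7% of all TPM in libraries 1 to 3, and the rest of the scale moves inversely to that share. Of the 41 members 37 had their highest TPM in library 3, as did 87.5% of detected protein-coding genes. When the TPM of genes shorter than 300 nt was left out of the total, the members were highest in libraries 1, 2 and 3 for 9, 15 and 17 genes, while 21.6%, 21.6% and 56.8% of detected protein-coding genes were, so most of the latter were still highest in library 3. A TPM value is therefore compared below between genes within a library, and libraries are compared on count scales. Where an SD of TPM over libraries is given, it includes this shift of scale and does not measure a gene's own variation.

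**Figure D1:**
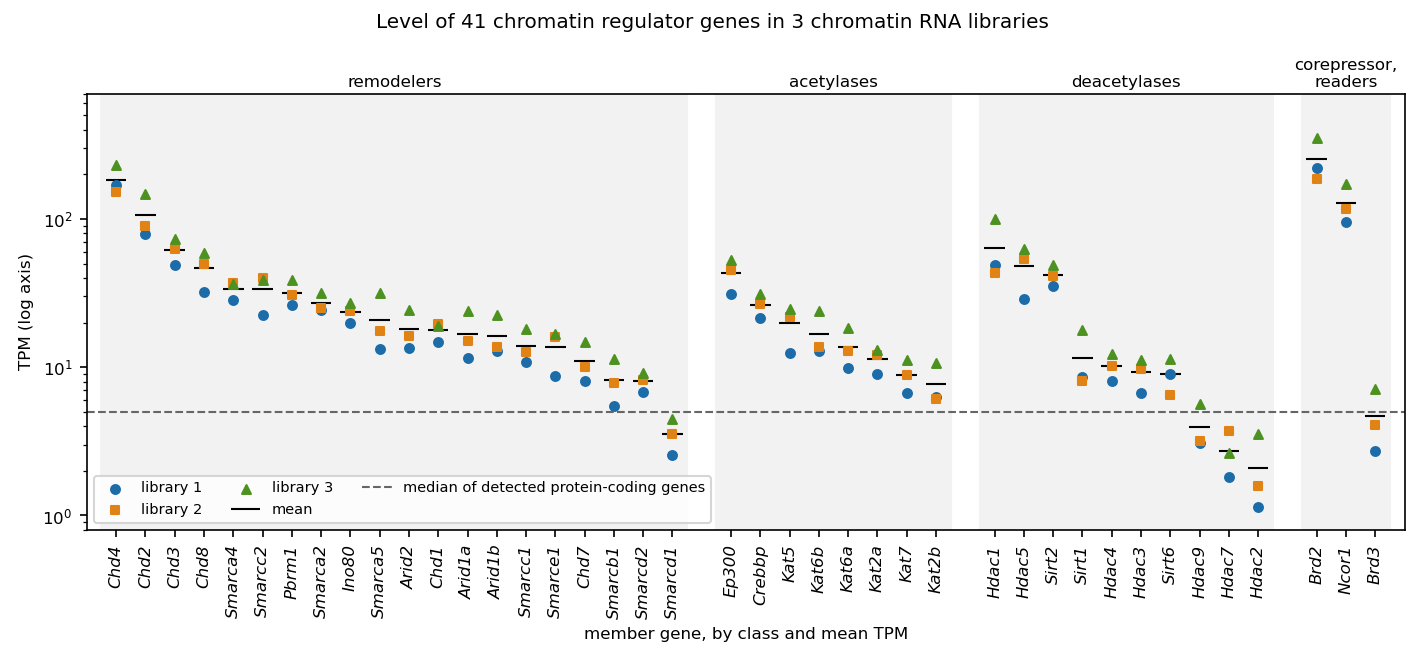
Level of each member in TPM (log axis) in libraries 1, 2 and 3, by class and ordered by mean, with a bar at the mean of the 3 libraries and a dashed line at 4.98 TPM, the median of detected protein-coding genes. Brd2, Chd4, Ncor1 and Chd2 lie at the top, and the means of Smarcd1, Hdac9, Hdac7, Hdac2 and Brd3 lie below the dashed line.

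Among the remodelers the CHD family held the highest levels. Chd4, the motor of the NuRD complex, which joins remodeling to deacetylation, stood at 168, 151 and 229 TPM in libraries 1 to 3. Chd2, a chromodomain remodeler of active genes, stood at 78.8, 89.99 and 148 TPM. Chd3, the other NuRD motor, stood at 48.5, 62.2 and 73.5 TPM. In each library Chd4 was above Chd2 and Chd2 was above Chd3, and in percentiles of detected protein-coding genes the means of the 3 lay at 98.8, 97.3 and 94.4. Chd8, which binds β-catenin and is known for its mutations in autism, had 32.3, 49.4 and 58.9 TPM. Its relative Chd7, the gene mutated in CHARGE syndrome, had 8.08, 10.1 and 14.8 TPM, below Chd8 in every library. Chd1, which binds methylated histone H3 at active promoters, was at 14.9, 19.5 and 18.8 TPM, close to the median of its class.

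The SWI/SNF members spanned a wide range although their proteins assemble into shared complexes. The alternative motors were Smarca4 (BRG1), at 28.3, 36.8 and 36.7 TPM, and Smarca2 (BRM), at 24.5, 24.96 and 31.9 TPM. Of the core scaffold proteins Smarcc2 was at 22.4, 39.6 and 38.9 TPM, and Smarcc1 was at 10.8, 12.7 and 18.2 TPM. Smarcc2 was above Smarcc1 in each library. Arid1a and Arid1b, the large DNA-binding subunits that occur in BAF complexes in place of each other, could not be ordered. Arid1a had 11.5, 15.02 and 23.8 TPM and Arid1b had 12.9, 13.7 and 22.4 TPM.

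The PBAF subunits Pbrm1, which carries a row of bromodomains, and Arid2, which binds DNA, had means of 31.8 ± 6.32 and 18.1 ± 5.70 TPM (SD, n = 3). The smaller core subunits lay in the lower part of the class by mean, but only Smarcd1 was below the median of detected protein-coding genes. Smarce1 had 8.76, 15.9 and 16.6 TPM, Smarcb1 had 5.49, 7.85 and 11.4 TPM, and Smarcd2 had 6.80, 8.22 and 9.14 TPM. Smarcd1 was the lowest remodeler in every library, at 2.57, 3.57 and 4.49 TPM, and its mean of 3.54 TPM lay at percentile 42.0. The ISWI motor Smarca5 and the INO80 motor Ino80 lay in mid-range, at 20.8 ± 9.75 and 23.5 ± 3.57 TPM (SD, n = 3).

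Of the acetylases the p300 and CBP pair came first. Ep300, a broad coactivator and the writer of the acetyl mark typical of active enhancers, was at 31.1, 45.2 and 53.2 TPM. Its paralog Crebbp was at 21.4, 26.5 and 31.2 TPM, and Kat5, the catalytic subunit of the TIP60 complex, was at 12.4, 21.9 and 24.9 TPM. By mean these were the highest 3 of the class, although Kat6b was above Kat5 in library 1. The MYST-family enzymes Kat6b and Kat6a had 12.8, 13.6 and 23.7 TPM and 9.84, 12.9 and 18.4 TPM. The lowest 3 were Kat2a (GCN5) at 8.97, 12.1 and 13.1 TPM, Kat7 (HBO1) at 6.67, 8.92 and 11.2 TPM and Kat2b (PCAF) at 6.34, 6.13 and 10.7 TPM. The means of all 8 acetylases lay between 7.73 and 43.1 TPM.

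The deacetylases ranged from 2.08 to 64.0 TPM by mean. Hdac1, a class I enzyme of the NuRD, SIN3 and CoREST complexes, was the highest by mean, at 48.7, 43.2 and 100.0 TPM, although Hdac5 was above it in library 2. Its close paralog Hdac2 was the lowest of all 41 members by mean, at 1.14, 1.58 and 3.53 TPM, although Hdac7 was lower in library 3. In counts the pair had 1146, 932 and 1274 reads for Hdac1 and 57, 80 and 111 reads for Hdac2. Hdac3, the enzyme that Ncor1 carries, lay between them at 9.23 ± 2.32 TPM (SD, n = 3).

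The class IIa enzymes, which shuttle between nucleus and cytoplasm and have little catalytic activity of their own, also differed. Hdac5 had 28.8, 53.3 and 63.1 TPM, and Hdac4 had 8.03, 10.2 and 12.2 TPM. Hdac9 had 3.10, 3.20 and 5.62 TPM and Hdac7 had 1.82, 3.70 and 2.62 TPM, and these values overlapped. Among the NAD-dependent sirtuins Sirt2 was highest, at 35.3, 41.1 and 48.8 TPM. Sirt1, which deacetylates the p65 subunit of NF-κB among other targets, had 8.61, 8.10 and 17.8 TPM, and Sirt6 had a mean of 8.93 ± 2.40 TPM (SD, n = 3).

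Brd2 had the highest level of all 41 genes in every library, at 221, 186 and 349 TPM, and Brd3 was among the lowest 5, at 2.74, 4.05 and 7.16 TPM. Brd2 and Brd3 are readers of the BET family, whose bromodomains dock on acetylated histones. Ncor1, the scaffold that joins Hdac3 to repressed nuclear receptors and other factors, had 95.7, 117 and 173 TPM.

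By class, the median member had 14.2, 18.5 and 25.7 TPM among the remodelers, 11.1, 13.2 and 21.1 TPM among the acetylases and 8.32, 8.93 and 11.8 TPM among the deacetylases. The class of 3 had its median at Ncor1. On the log2(TPM + 0.1) scale the remodeler median exceeded the acetylase median by 0.36, 0.48 and 0.30 in libraries 1 to 3 (mean 0.38 ± 0.09, SD, n = 3). It exceeded the deacetylase median by 0.76, 1.05 and 1.12 (mean 0.98 ± 0.19). The acetylase median exceeded that of the deacetylases by 0.41, 0.57 and 0.82 (mean 0.60 ± 0.21). The order remodelers, acetylases, deacetylases therefore held in each library, as a description without a test. The members within each of these classes covered a wider range than the class medians did. With the second quantification, deposited as a separate table made from the read files, the acetylase margin over the deacetylases was -0.036, 0.70 and 0.30 in libraries 1 to 3 (mean 0.32 ± 0.37), so that the order of these classes did not hold in library 1.

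Part of the RNA of these genes was assigned to transcripts not annotated as protein-coding. By the median member that part was smaller by reads than per length. The share of a gene's abundance on each annotated transcript was deposited as a percent, computed per length, so that a short transcript with few reads can hold a large share. Transcripts annotated as protein-coding held a median of 64.7% of a member's abundance and 59.9% for detected protein-coding genes with at least 2 transcripts. Retained-intron transcripts, which keep a stretch that is an intron elsewhere and are annotated as noncoding, held a median of 27.2% in the members and 22.4% in those genes. The members had a median of 8 annotated transcripts and those genes had 6. By reads and not per length, protein-coding transcripts held a median of 85.9% of the members' expected counts, a share that was not computed for other genes. In unfinished chromatin RNA, reads from introns that have yet to be spliced and reads from stably retained introns cannot be told apart.

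In 11 of 41 members the most abundant transcript was not a protein-coding one, against 31.4% of detected protein-coding genes with at least 2 transcripts. The member share is close to that background. They were Smarcc1, Arid1b, Kat6b, Hdac1, Hdac5, Hdac7, Sirt1, Sirt2 and Brd2, each led by a retained-intron transcript, and Smarce1 and Kat2a, each led by a transcript of the processed type, a noncoding class with no open reading frame. By class they were 3 of 20 remodelers, 2 of 8 acetylases, 5 of 10 deacetylases and Brd2. In the second quantification 19 of 41 members and 45.3% of the background genes had such a leading transcript, and all 11 of the members above were among the 19. The transcript itself could differ. Brd2, Hdac5, Hdac7, Sirt1 and Sirt2 were led there by another retained-intron transcript. Over all members, coding or not, the same transcript led in both quantifications in 19 of 41. The same count over other genes was not made, so neither share is set against a background.

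The 4 kept introns printed here lie in Brd2, Hdac1, Sirt2 and Hdac5, the highest reader and the 3 highest deacetylases, whose leading transcripts read through a junction that a protein-coding transcript of the same gene splices. Of these leading transcripts only that of Hdac1 also led in the second quantification. Those of Sirt2 and Hdac5 did not lead in every library. Each line gives the last 20 exon bases and the first 40 intron bases on the gene's strand, and the capitals mark the GT that opens the intron. The sequences are those of GENCODE M21 transcripts on build mm10.
Brd2: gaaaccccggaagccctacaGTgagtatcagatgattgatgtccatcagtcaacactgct
Hdac1: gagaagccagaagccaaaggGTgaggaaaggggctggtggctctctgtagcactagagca
Sirt2: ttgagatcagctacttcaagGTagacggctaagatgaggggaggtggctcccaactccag
Hdac5: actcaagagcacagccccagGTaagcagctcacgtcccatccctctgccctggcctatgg

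All 4 introns lie between coding exons, begin with GT and end with AG. The Brd2 intron spans chr17:34112979-34113176 on the minus strand, 198 bases, and is spliced in Brd2-202. The Hdac1 intron spans chr4:129516637-129516899 on the minus strand, 263 bases, and is spliced in Hdac1-201. The Sirt2 intron spans chr7:28777103-28777190 on the plus strand, 88 bases, and is spliced in Sirt2-208. The Hdac5 intron spans chr11:102195869-102195951 on the minus strand, 83 bases, and is spliced in Hdac5-204. Brd2-204 and Sirt2-210, the leading transcripts of those genes, each keep a further intron, of 147 and 96 bases.

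In Brd2, protein-coding transcripts held 10.1%, 11.1% and 9.38% of the abundance in libraries 1 to 3, the lowest mean of all members, and retained-intron transcripts held 78.1%, 77.9% and 77.1%. Brd2-204, of 961 nt, alone held 24.7%, 23.9% and 24.9%. On protein-coding transcripts only, Brd2 had 22.4, 20.6 and 32.7 TPM and fell from rank 1 to rank 9 of the members. These shares were nearly equal in the 3 libraries, in which the gene had 7230.3, 5819.4 and 7018.5 expected counts. By reads and not per length, protein-coding transcripts held a mean of 27.1% of the Brd2 counts.

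In Hdac1, the 844 nt transcript Hdac1-206 held 61.5%, 49.0% and 68.4% of the abundance, and protein-coding transcripts held 20.8%, 24.3% and 15.8%. The coding level of Hdac1 was 10.1, 10.5 and 15.8 TPM, at rank 18 of the members. Hdac5 kept 27.5%, 21.6% and 26.5% on protein-coding transcripts. Sirt1 kept 19.0%, 13.2% and 22.6%, and Sirt2 kept 37.2%, 48.6% and 50.9%. By reads and not per length, protein-coding transcripts held a mean of 43.0% in Hdac1, 46.6% in Hdac5, 31.6% in Sirt1 and 56.3% in Sirt2. Per length, Hdac2 and Hdac9, at the low end of the class, were at 92.5% ± 6.55 and 89.1% ± 2.58 coding (SD, n = 3). The median coding share per length was 44.4% over the deacetylases, 66.7% over the remodelers and 68.3% over the acetylases.

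Among the remodelers and acetylases the mean coding shares ran from 18.4% to 100%. Smarca4, with 4 annotated transcripts, was at 100% coding in each library. Kat6a, with 3, was at 97.2% ± 2.60 (SD, n = 3). Smarce1 was at 18.4%, 14.02% and 22.7%, with 36.4%, 51.4% and 33.8% on the 481 nt Smarce1-205. Kat2a was at 27.7%, 28.9% and 24.7%, with 61.2%, 56.7% and 63.8% on Kat2a-204. By reads the mean coding share was 48.5% in Smarce1 and 27.4% in Kat2a.

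Arid1b shows how the per-length share and the reads can differ. Its 1083 nt transcript Arid1b-205 held 37.6%, 45.9% and 47.7% of the abundance, while 88.7% of the gene's counts fell on protein-coding transcripts. Kat6b-213 held 35.6%, 28.1% and 28.9% of Kat6b, and Smarcc1-208 held 30.4%, 14.2% and 27.5% of Smarcc1. Hdac7-213 held 30.6%, 22.7% and 33.96% of Hdac7, a gene with a mean of 166 counts, and there the coding share varied from 22.9% to 48.0%. By reads the mean coding share was 52.2% in Kat6b, 60.2% in Smarcc1 and 29.3% in Hdac7. The leading transcript was the same in all 3 libraries in 23 of 41 members, a share that was not computed for other genes.

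**Figure D2:**
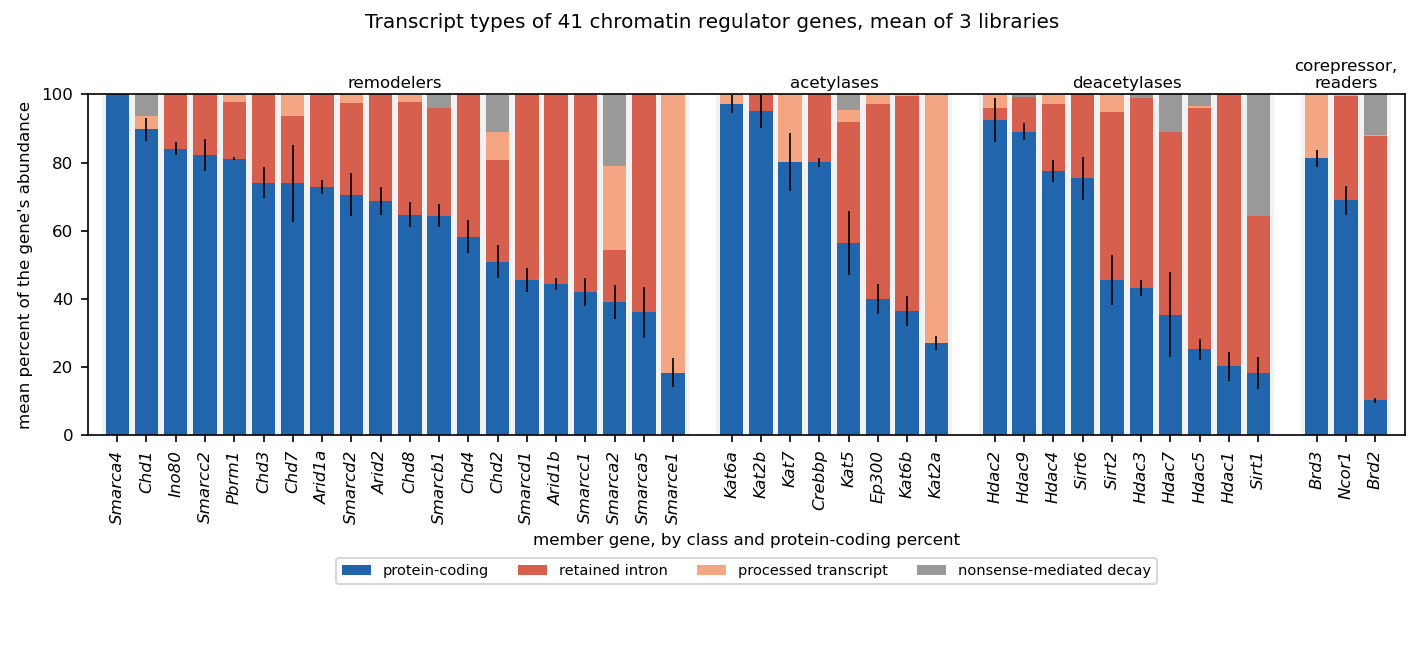
Mean percent of each member's abundance on protein-coding, retained-intron, processed and nonsense-mediated-decay transcripts over 3 libraries, by class, with error bars giving the SD of the protein-coding percent. The protein-coding bar runs from 10.2% in Brd2 to 100% in Smarca4, and 4 deacetylases reach less than 40%.

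Paralogs with related proteins were compared within each library as log2 ratios of TPM + 0.1. In 12 of 14 pairs the same gene was higher in all 3 libraries. With 3 libraries, flipping the sign of each library's ratio in an exact permutation test (two-sided) can reach no p below 0.25, which those pairs had (0.292 after Benjamini-Hochberg adjustment over the 14 pairs), so none can pass 0.05. The widest difference was Brd2 over Brd3, at 6.28, 5.49 and 5.59 (mean 5.79 ± 0.43, SD, n = 3). Hdac1 over Hdac2 came next at 5.30, 4.69 and 4.79 (mean 4.92 ± 0.33). Both are also wide in the second quantification, at 5.17 ± 0.28 and 5.19 ± 0.44. On protein-coding transcripts only they shrank to 2.79 ± 0.45 and 2.72 ± 0.47, with the same gene higher in each library.

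Of the CHD pairs, Chd2 exceeded Chd1 by 2.40, 2.20 and 2.97, Chd8 exceeded Chd7 by 1.99, 2.28 and 1.98, and Chd4 exceeded Chd3 by 1.79, 1.28 and 1.64. Hdac5 exceeded Hdac4 by 1.83, 2.38 and 2.36, but by only 0.56 ± 0.21 on protein-coding transcripts. Smarcc2 exceeded Smarcc1 by 1.04, 1.63 and 1.09, and Smarcd2 exceeded Smarcd1 by 1.37, 1.18 and 1.01. In these 8 widest pairs the direction was the same in all 3 libraries under both quantifications and on protein-coding transcripts.

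In the 6 narrower pairs the direction depended on how transcripts were counted or on the library. Ep300 exceeded Crebbp by 0.53, 0.77 and 0.77, but on protein-coding transcripts the ratio was -0.32 ± 0.19, with Crebbp higher in each library. Kat2a exceeded Kat2b by 0.49, 0.97 and 0.29, against -0.84 ± 0.38 in the second quantification and -1.20 ± 0.48 on protein-coding transcripts. Kat6b exceeded Kat6a by 0.38, 0.07 and 0.36, and on protein-coding transcripts Kat6a was higher by 1.14 ± 0.12.

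The SWI/SNF motors also depended on the quantification. Smarca4 exceeded Smarca2 by 0.21, 0.56 and 0.20 and by 1.68 ± 0.17 on protein-coding transcripts, but in the second quantification Smarca2 was higher by 0.55 ± 0.44. Smarca2 has 46 annotated transcripts, with a mean of 39.1% of its abundance on protein-coding ones. Smarca4 has 4, with 100%. The part of annotation in the wider ratio on protein-coding transcripts was not tested. Arid1a and Arid1b differed by a mean of 0.02 ± 0.15. Arid1b was higher in each library in the second quantification, by 0.15 ± 0.10. On protein-coding transcripts Arid1a was higher in each library, by 0.73 ± 0.17. Hdac9 was above Hdac7 in libraries 1 and 3 and below it in library 2. It was above Hdac7 in each library in the second quantification, by 0.66 ± 0.32, and on protein-coding transcripts, by 1.82 ± 1.08.

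**Figure D3:**
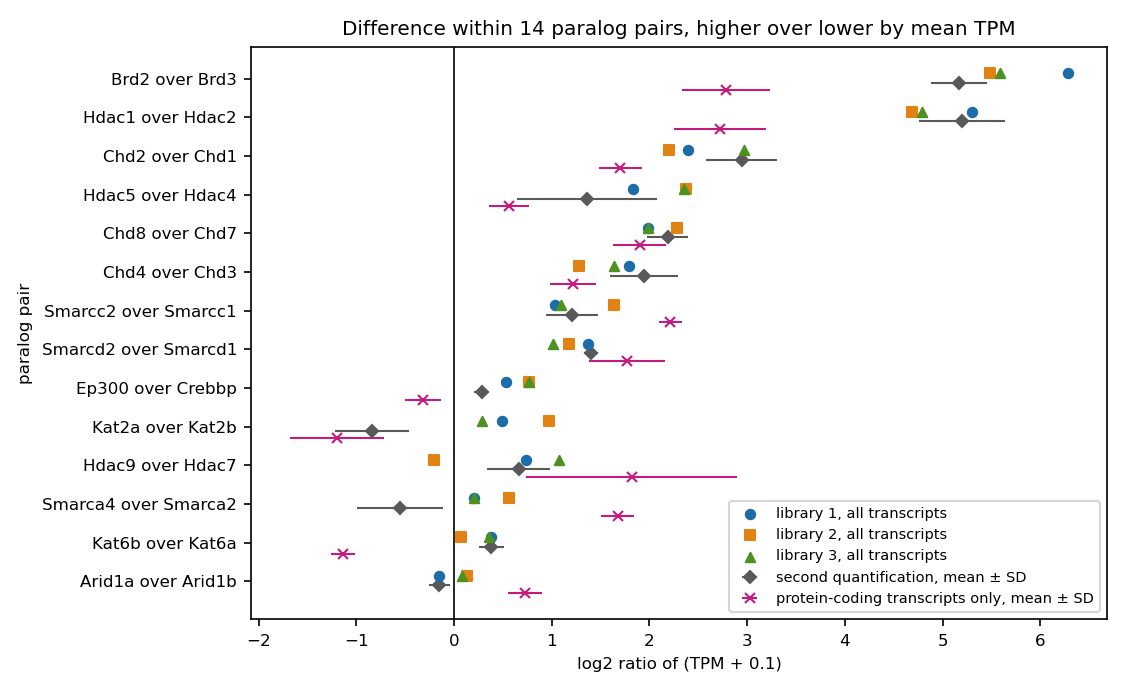
Log2 ratio of TPM + 0.1 within each paralog pair, the gene with the higher mean over the other, with coloured points for the 3 libraries, diamonds for the second quantification and crosses for protein-coding transcripts only (mean ± SD, n = 3). The upper 8 pairs lie to the right of 0 on every measure, and the crosses of Ep300, Kat2a and Kat6b lie to the left of it.

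Whether any member varied between the libraries more than genes of similar abundance was tested with edgeR's quasi-likelihood fit across 13309 genes. No member passed an adjusted p of 0.05, and 0% of all genes did. At an unadjusted p under 0.05 stood 0 members and 4.92% of genes. DESeq2, which marks genes whose dispersion lies far from the trend, marked 96 of 23976 genes and 0 members. The SD of log2 CPM (counts scaled to library size by the trimmed mean of M-values, TMM) over the 3 libraries had a median of 0.19 in the members and 0.27 in all genes tested. The members also carried more counts than the median gene, as given above, and the part of depth in this was not tested. The steadiest member was Hdac9, with an SD of 0.06, and the most variable were Hdac7 at 0.48, Chd4 at 0.43 and Chd3 at 0.42.

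On this count scale the members ran low in library 3, in contrast to their TPM. Their median deviation from their own mean was 0.06, 0.11 and -0.16 in libraries 1 to 3, against medians of -0.0044, -0.0082 and 0.016 over all genes tested. Of 41 members 26 were lowest in library 3, as were 33.5% of genes tested, and 5 were highest there, against 37.5%. With DESeq2 size factors 5 members were again highest in library 3 and the median deviation there was -0.19, against 33.9% of genes tested and a median of -0.014 over them, which has the opposite sign to the value under TMM. No genes matched to the members on counts or length were compared, so low values in library 3 are not shown to be particular to them. All macrophage markers but Fcgr1 and Lyz2 also had their lowest expected counts there, with Csf1r at 17656, 16064 and 14168 and Adgre1 at 4057, 4053 and 2835.

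By class, the median deviation in library 3 was -0.17 over the remodelers, -0.12 over the acetylases, -0.13 over the deacetylases and -0.01 over Ncor1 and the readers. Of the 20 remodelers 0 were highest in library 3 and 15 were lowest there. Chd4 deviated by 0.41, 0.04 and -0.45 and Chd3 by 0.16, 0.31 and -0.48. The 5 members highest in library 3 were Kat2b, Hdac2, Hdac9, Sirt1 and Brd3, of which Hdac2 deviated by -0.39, -0.00094 and 0.39 and Brd3 by -0.27, -0.01 and 0.27. All 3 libraries differed in starting RNA, with library 3 between the others at 500 ng, and library 3 had the lowest small-RNA share. The part of either in this was not tested. In bulk RNA of this kind, fewer cells and less RNA per cell cannot be told apart.

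**Figure D4:**
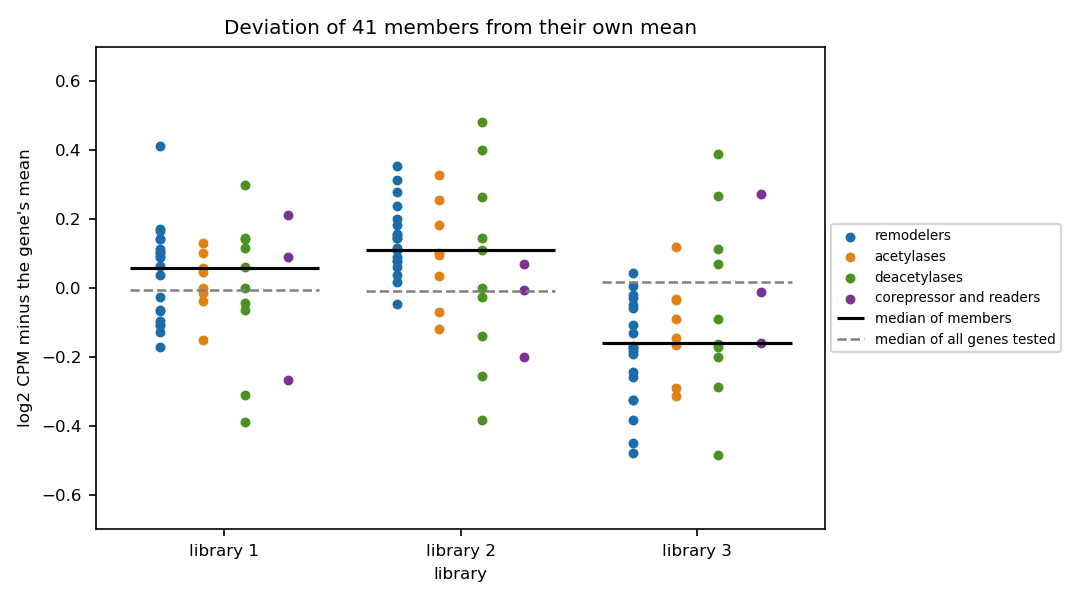
Deviation of each member's log2 CPM (TMM scaling) from its own mean, by library and class, with solid bars at the median of the 41 members and dashed bars at the median of all 13309 genes tested. The member bar lies at -0.16 in library 3, and the remodeler points there lie almost all below 0.

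The strand setting of the deposited counts is not given, so reads of genes that overlap on opposite strands may be shared. By gene span, introns included, 16 of 41 members overlap an annotated gene on the other strand, counted whether or not that gene had reads. The same share over all genes was not computed. The members have a median span of 62084 bases, against 25080 for detected protein-coding genes. The largest such neighbours by counts were Nfkbib in Sirt2, with 802, 720 and 997 counts, Dhx30 in Smarcc1, with 726, 966 and 802 counts, and Gnl3 in Pbrm1, with 502, 572 and 349 counts. Nfkbib, which encodes the NF-κB inhibitor IκBβ, is itself a gene of the lipid A pathway. Overlap of exons was not examined, and these are counts of the whole neighbour. The number of reads shared with Sirt2, Smarcc1 and Pbrm1, if any, is therefore not known. On the same strand, 1810026B05Rik lies in the Chd2 span with 1442, 1609 and 2238 counts.

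Other genes of the same machinery were read from 5 further lists of 92 genes. Of 16 other BAF and PBAF subunits 14 were detected and 4 reached 10 TPM, with Dpf2 at 33.2, 33.0 and 28.8 TPM and Brd7 at 11.0, 20.1 and 32.4 TPM as the highest 2 by mean, although Brd9 was above Brd7 in libraries 1 and 2. Actl6b, a subunit of neuronal BAF complexes, had 0 counts in every library, and Dpf3 had 0, 3 and 0 counts. Of 24 other remodeler motors and partners 23 were detected and 12 reached 10 TPM. Atrx, which deposits histone H3.3 in heterochromatin with Daxx, was at 158, 195 and 247 TPM, in the range of Chd4, and Chd9 was at 42.5, 44.3 and 65.1 TPM. Smarca1, the other ISWI motor, had 0, 0 and 1 counts, whereas its paralog Smarca5 had 917, 1270 and 1147.

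All 21 other acetylases and partners were detected and 10 reached 10 TPM. Trrap, the large scaffold of the TIP60 and SAGA complexes, was at 54.8, 66.7 and 74.0 TPM, above every acetylase among the members, and Supt20 of SAGA was at 33.9, 41.2 and 58.8 TPM. All 8 other deacetylases were detected, but only Sirt7 reached 10 TPM, at 26.2, 46.1 and 43.4 TPM. Hdac8, the remaining class I enzyme, had 7.22, 7.35 and 11.9 TPM, and the cytoplasmic tubulin deacetylase Hdac6 had 7.0, 8.48 and 10.2 TPM.

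Of 23 other corepressors and readers 21 were detected and 13 reached 10 TPM. Rcor2 and Brdt, the BET protein of the testis, were not detected, at means below 10 counts.

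Promoters from 250 bases before to 50 bases after a RefSeq start on GRCm38.p6 were matched by symbol for 32 of 41 members, with 45 starts. Chd1, Chd2, Chd3, Chd7, Arid2, Smarce1, Kat6a, Hdac1 and Hdac3 were not matched. The member promoters had a median G+C content of 66.0% and 29 CpG dinucleotides, against 52.7% and 7 over all 32851 promoters of the table. The latter were not limited to genes detected here, as all members were, and detected genes alone were not compared. TATAAA on the gene's strand in the 50 bases before the start was present in 2.22% of member promoters, which is 1 start of Hdac9, and 2.63% of all. A match is a description of letters only, and no other motif was searched.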

How the data were processed

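Chromatin-fraction RNA was measured in 3 libraries of 1 group. Per the file headers the authors deposited, for each library, expected counts and TPM per gene, expected counts, TPM and the percent of the gene's abundance per transcript, and a second transcript table of estimated counts and TPM. Per the deposited file notes the tables use build mm10 and GENCODE M21. Neither the tools nor the use of strand in counting is given in the sources used here. Since TPM holds no depth, expected counts set the precision of each value.

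Members and lists were chosen with earlier results of these data known. Levels are TPM as deposited, class medians use log2(TPM + 0.1), and paralog ratios were tested by exact sign-flip permutation. Expected counts were rounded for edgeR 4.0.16 (filterByExpr, TMM, an intercept-only quasi-likelihood fit in which a gene's deviance is set against the trended prior, Benjamini-Hochberg adjustment) in R 4.3.3, a fit tested on simulated data. Log2 CPM used a prior count of 0.5. DESeq2 1.42.0 and Python 3.11.15 with pandas 2.3.3 were also used. All 41 members are named, with values in each library for the highest and lowest 3 of each class, paralogs and members led by a noncoding transcript. Of other lists the highest 2 and up to 2 undetected genes are named, with Hdac6 and Hdac8. Some genes of these lists are not reported here. Overlapping genes were chosen after their values were seen. Protein sequences were planned and not used here, and intron boundaries are shown instead. Alternatives are given in the closing section. One of them, TPM of protein-coding transcripts only, was added after seeing the data.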

Additional observations from a re-analysis of the deposited data

How the results depend on the processing

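Detection of 41 members and 0 members past the spread test were the same under every alternative, and each class difference kept its sign as a mean over libraries, though the acetylase margin over the deacetylases was -0.036 in library 1 of the second quantification. Over all genes, the spread test called 117 with no count filter, 17 and 49 without replicates 1 and 2, and 0 with all 3 libraries and the filter, and 1 member had an unadjusted p under 0.05 without replicate 3. The level of a class median depended on the scale. The main values of log2(TPM + 0.1) were 4.25 for the remodelers, 3.87 for the acetylases, 3.27 for the deacetylases and 6.96 for Ncor1 and the readers. In that order they became 6.87, 6.04, 4.53 and 8.59 as CPM without length correction, 5.80, 5.42, 4.82 and 8.52 with TPM whose total left out genes shorter than 300 nt, and 3.58, 3.18, 2.38 and 4.63 on protein-coding transcripts only, an alternative chosen after seeing the data. In the second quantification the first 3 became 4.73, 4.35 and 4.03, and a mean over members gave 5.68 for Ncor1 and the readers.

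The remodeler margin over the acetylases became 0.83 as CPM and 0.51 with means over members. The remodeler margin over the deacetylases became 0.70 in the second quantification, 2.33 as CPM and 1.21 on protein-coding transcripts. The acetylase margin over the deacetylases became 0.32 and 1.51 in the second quantification and as CPM. The margin of Ncor1 and the readers over the remodelers, 2.72 in the main analysis, became 2.66 with a pseudocount of 1, 2.54 in the second quantification, 1.73 as CPM, 1.21 with means and 1.05 on protein-coding transcripts. Leading noncoding transcripts numbered 19 in the second quantification.

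Paralog directions turned in 5 of 14 pairs under at least 1 alternative. Smarca2 over Smarca4 became 0.55 in the second quantification. Arid1a over Arid1b became -0.15 there, -0.0016 with posterior mean TPM, and -0.035 and -0.012 without replicates 2 and 3, against 0.11 without replicate 1. Ep300 over Crebbp became -0.091 as CPM and -0.32 on protein-coding transcripts. Kat2a over Kat2b became -0.84 in the second quantification and -1.20 on protein-coding transcripts. Kat6a over Kat6b became 0.58 as CPM and 1.14 on protein-coding transcripts. Pairs of a single direction in all 3 libraries, 12 in the main analysis, numbered 10 with posterior mean TPM and 14 both in the second quantification and on protein-coding transcripts. The cause was not tested beyond what each scale leaves out.

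Leaving out each replicate gave class medians of 4.02 to 4.45, 3.61 to 4.07, 3.12 to 3.37 and 6.73 to 7.15 in the order above. Margins ranged from 0.33 to 0.42, 0.90 to 1.08, 0.49 to 0.70 and 2.70 to 2.75. Members at 10 TPM or more numbered 27 to 32, leading noncoding transcripts 10 to 12 and pairs of a single direction 12 to 13. Depth limits Hdac2, Smarcd1 and Hdac7 most, with means of 82.7, 123 and 166 counts. No paired analysis was possible because the libraries form 1 group.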
